A study of Mus musculus with 8 samples.

Results

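Transcript levels of 10 genes of the circadian clock were followed across the distal ileum of Cftr null (KO) mice and their wild-type (WT) littermates. The genes were taken by symbol as a set chosen for their place in the clock: Arntl, Npas2, Per1, Per2, Per3, Cry1, Nr1d1, Nr1d2, Dbp and Tef. All 10 were found among the 41128 gene symbols of the authors' table, and all 10 passed the filter on low values (values of 1 or more in 3 or more libraries). Polyadenylated RNA came from whole sections of the ileum, within 6 cm of the ileocecal valve, with 1 library for each of 8 mice. The mice formed 4 couples of sex-matched littermates, congenic on the FVB strain. Each couple held a homozygous carrier of the Cftr null allele Cftrtm1Cam (labelled Cftr -/-) and a control (Cftr N/N), and the labels give no age. Couples 1 and 3 (female) and couple 2 (male) were untreated, which gives n = 3 per genotype. The remaining couple (female) drank water with ciprofloxacin at 0.3 g/L and metronidazole at 0.5 g/L, which gives n = 1 per genotype. All mice ate a low-fiber diet and had received an osmotic laxative until more than 4 days before sampling. Littermates were sampled no more than 20 min apart, and all mice between 12 and 14 h. The null allele acts in the whole animal, and in whole tissue fewer cells of a type and less RNA per cell cannot be told apart.

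The clock of mammalian cells is a transcriptional loop. BMAL1 (encoded by Arntl) pairs with CLOCK or its relative NPAS2 and activates genes through E-box elements, among them the Per and Cry genes, whose proteins return to the nucleus and repress the pair. A second loop runs through the nuclear receptors REV-ERB alpha and beta (Nr1d1 and Nr1d2), which are themselves activated by the pair and repress Arntl, Npas2 and other genes through RORE elements. DBP and TEF are output factors of the PAR bZIP family that bind D-box elements and drive daytime transcripts, and NFIL3 represses at the same elements. In the intestine this clock is set by feeding as well as by light, and each of its transcripts rises and falls over the day, so that a level at 1 hour samples 1 point of a cycle.

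The stretches before the start sites of 4 of these genes are shown as examples. They hold letter matches to elements through which the loops are known to act. RefSeq sequences (build GRCm38.p6) were matched by symbol for 9 of the 10 genes. In 250 bases before each start site, both strands were searched for the E-box CACGTG, the E-box-like CACGTT, the D-box forms TTATGTAA and TTACGTAA, the RORE cores TAGGTCA and TGGGTCA, and the CRE TGACGTCA. No motif searched overlapped another in the windows shown. Each is printed 5′ to 3′ on the strand of the gene, with the matches in capitals.
Per3, chr4:151044666-151044915, minus strand: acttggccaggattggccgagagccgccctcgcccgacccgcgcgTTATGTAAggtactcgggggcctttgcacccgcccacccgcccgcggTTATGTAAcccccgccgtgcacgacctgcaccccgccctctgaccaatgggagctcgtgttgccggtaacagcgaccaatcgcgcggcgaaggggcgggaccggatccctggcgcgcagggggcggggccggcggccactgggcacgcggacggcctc
Cry1, chr10:85185055-85185304, minus strand: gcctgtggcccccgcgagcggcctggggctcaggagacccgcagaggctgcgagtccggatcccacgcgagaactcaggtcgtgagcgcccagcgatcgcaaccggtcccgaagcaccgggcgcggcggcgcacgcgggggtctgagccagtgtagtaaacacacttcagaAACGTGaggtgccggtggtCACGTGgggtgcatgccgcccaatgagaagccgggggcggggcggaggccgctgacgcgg
Tef, chr15:81811164-81811413, plus strand: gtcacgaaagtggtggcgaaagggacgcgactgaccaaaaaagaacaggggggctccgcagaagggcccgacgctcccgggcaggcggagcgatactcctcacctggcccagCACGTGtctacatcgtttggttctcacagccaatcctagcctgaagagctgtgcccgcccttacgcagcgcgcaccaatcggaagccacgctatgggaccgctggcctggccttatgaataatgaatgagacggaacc
Nr1d1, chr11:98775378-98775627, minus strand: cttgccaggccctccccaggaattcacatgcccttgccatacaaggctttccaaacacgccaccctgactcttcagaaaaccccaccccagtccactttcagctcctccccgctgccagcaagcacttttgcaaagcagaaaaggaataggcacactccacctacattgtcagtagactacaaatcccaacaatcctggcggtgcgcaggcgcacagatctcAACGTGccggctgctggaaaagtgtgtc
The Per3 window held the D-box TTATGTAA at 2 places, 205 and 158 bases before the start site, and 0.819% of 32851 promoter windows of this length held that motif. The Cry1 window held an E-box at 60 bases and an E-box-like match, read as AACGTG, at 79 bases. Both Tef windows in the table held 1 E-box (138 bases before the start site in the window shown), and so did 1 of the 2 Per1 windows. The Nr1d1 window held 1 E-box-like match at 28 bases. The E-box was in 6.02% of all windows and its variant in 3.85%. Of the 9 genes, with 12 windows in all, 5 had a match to any of the motifs in at least 1 window. Arntl, Npas2, Dbp and Nr1d2 had no match. The RORE cores TAGGTCA and TGGGTCA were in the windows of 0 of the genes (2.23% and 3.24% of all windows). The same held for the CRE (1.55%) and the D-box form TTACGTAA (0.113%). The share of all genes with a match to any motif was not computed. These are matches of letters and not measured binding sites.

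Values are the authors' RPKM-like values, taken here to be scaled for library size and gene length, as no source names the unit. They had been normalized in 3 separate sets: couples 1 and 2 together, couple 3, and the antibiotic couple. Read depth behind them is unknown. Levels of couples 1 and 2 can thus be set side by side, whereas a level in couple 3 or the antibiotic couple also carries the difference between sets. Cftr was lower in every KO library (3.74, 2.65 and 3.17 in couples 1, 2 and 3, and 4.94 with antibiotics) than in its WT littermate (12.4, 9.94, 10.1 and 13.8), as the labels say. The 7 epithelial and 4 ileal markers were above 0 in every library. The ileal markers summed to between 5251 and 7064 in untreated WT and between 897 and 2471 in untreated KO libraries, with 3 of the 4 lower and 1 higher in KO in all 3 couples. Of the 7 epithelial markers, 2 were lower and 2 higher in all 3 couples. Over all 11717 tested genes, 32.5% were lower and 28.1% higher in KO in all 3 couples, and the marker counts are read beside these shares. Of 5 endothelial markers, 4 were lower in KO in all 3 couples (sums 14.6 to 18.7 in WT and 7.80 to 14.9 in KO). Of 7 leukocyte markers, 3 were higher in KO in all 3 couples (sums 19.8 to 48.8 and 38.4 to 86.6), and with antibiotics the leukocyte sum was 10.1 in WT and 67.7 in KO. Of 7 smooth muscle markers, 1 was lower in KO in all 3 couples and 0 were called (sums 466 to 729 in WT and 392 to 652 in KO). Of 6 markers of neurons and glia, 2 were lower (sums 7.22 to 10.7 and 4.07 to 4.45), and 4 of the 6 were at 0 in at least 1 library. The part of these marker levels in the clock gene differences was not tested.

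In untreated ileum the 10 genes stood mostly below the WT level in KO mice, and 5 of them (Npas2, Per2, Per3, Cry1 and Tef) were lower in KO in all 3 couples. For comparison, 32.5% of the 11717 tested genes were lower in KO in all 3 couples. The other 5 (Arntl, Per1, Dbp, Nr1d1 and Nr1d2) changed direction from couple to couple, and 0 of the 10 were higher in all 3. Over the 10 genes, the median difference between littermates on the log2(value + 1) scale came to -0.54, -0.47 and -0.31 in couples 1, 2 and 3, where the medians over all tested genes were -0.02, 0.00 and -0.03. All log2 changes given here are on that scale, which understates changes of low values. In the limma comparison of the 6 untreated libraries without regard to couples, 0 of the 10 genes passed an adjusted p of 0.05 in either direction while 1.01% of tested genes were called lower and 1.15% higher (2.16% in either direction). At an unadjusted p under 0.05, 1 of the 10 (Npas2) was lower and 0 were higher, beside 8.71% and 7.25% of tested genes (16.0% in either direction). With the couple as a block, which removes what littermates share, 3 of the 10 were called lower and 0 higher, against 9.91% of tested genes lower and 8.4% higher (18.3% in either direction). The 3 were Npas2, Per3 and Tef. At an unadjusted p under 0.05 with the block, 5 were lower and 0 higher, beside 20.8% and 18.2% of tested genes (38.9% in either direction).

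**Figure D1:**
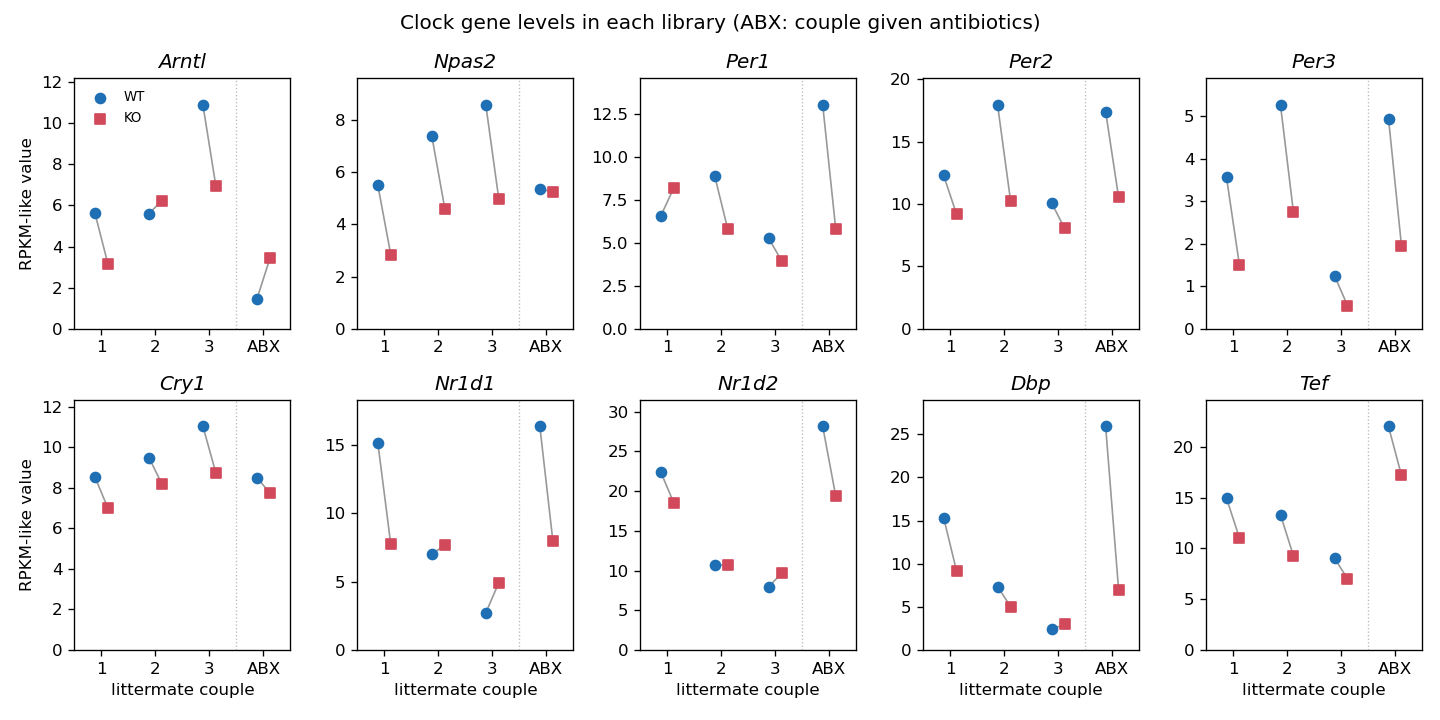
Level of each of the 10 clock genes (RPKM-like value, linear axis from 0) in the WT library (blue circle) and KO library (red square) of couples 1, 2 and 3 and of the couple given antibiotics (ABX), with a line joining littermates; each point is 1 mouse. Npas2, Per2, Per3, Cry1 and Tef slope downward in every couple, by little for Npas2 with antibiotics (5.34 to 5.25), whereas Nr1d1 slopes down in couple 1 and up in couple 3.

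Among the activators, Npas2 separated the genotypes completely and Arntl did not. For Npas2, the partner that can stand in for CLOCK, couples 1, 2 and 3 gave 5.50, 7.37 and 8.56 (WT) against 2.84, 4.60 and 4.97 (KO). Every untreated KO value was thus below every WT value, which held for no other of the 10 genes and for 12.1% of tested genes. This comparison crosses normalization sets at couple 3. Within couples 1 and 2, Per2, Per3, Cry1 and Tef also had each KO value below each WT value. The means were 7.14 ± 1.54 and 4.14 ± 1.14 (SD, n = 3 each), a log2 change of -0.67 with limma (SE 0.23, adjusted p = 0.201 without the block, and SE 0.081, adjusted p = 0.0167 with it). Npas2 spans bases 39193731 to 39363236 of chromosome 1 (plus strand, GRCm38, as for all positions below). Clock, the other partner of BMAL1, gave 11.2, 9.66 and 10.7 (WT) against 12.7, 9.72 and 8.50 (KO), a log2 change of -0.04 (SE 0.11 with the block, adjusted p = 0.794). In these values Npas2 stood at 0.489, 0.763 and 0.801 of Clock in the WT mice of couples 1, 2 and 3. In the KO mice it stood at 0.224, 0.474 and 0.584, so the ratio was lower in the KO member of each untreated couple. Arntl (chromosome 7, 113207465 to 113314126, plus strand), which encodes BMAL1, gave 5.62, 5.60 and 10.9 (WT) against 3.16, 6.24 and 6.93 (KO). It was lower in KO in couples 1 and 3 and slightly higher in couple 2, and the groups overlapped (log2 change -0.37, SE 0.18 with the block, limma adjusted p = 0.197). The 2 WT libraries of couples 1 and 2 had nearly the same Arntl level.

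Of the repressors, Per3 was the one called lower with the block. Per3 (chromosome 4, 151003652 to 151044665, minus strand), which carries the D-box pair shown above, gave 3.56, 5.26 and 1.25 (WT) against 1.49, 2.74 and 0.548 (KO) in couples 1, 2 and 3. Each KO mouse had less than its littermate, but the WT mouse of couple 3 was below the KO mice of couples 1 and 2, so the groups overlapped. Couple 3 is in another normalization set, and within couples 1 and 2 the groups did not overlap. The WT mean was 3.36 ± 2.01 and the KO mean 1.59 ± 1.10 (SD over 3 mice each). The log2 change was -0.72 (SE 0.44 and limma adjusted p = 0.480 without the block, SE 0.11 and adjusted p = 0.0231 with it). Leaving out single libraries moved it over 1.5 times, to -1.13 without the WT mouse of couple 3, and to -0.40 and -0.39 without the WT mouse of couple 2 or the KO mouse of couple 3. Per2 (chromosome 1, 91415982 to 91459324, minus strand), a core repressor that is also induced by feeding and hormone signals, gave 12.3, 17.9 and 10.1 (WT) against 9.19, 10.2 and 8.06 (KO). Its log2 change of -0.48 (SE 0.11 with the block) had an adjusted p of 0.0523 and so missed the threshold, with each couple in the same direction. Cry1 (chromosome 10, 85131700 to 85185064, minus strand), the strongest repressor of the BMAL1 pair, varied least of the 10 genes across 3 WT mice. That span crosses normalization sets, and between the WT mice of couples 1 and 2 Arntl varied less (1.00-fold against 1.11-fold). Cry1 gave 8.53, 9.49 and 11.0 (WT) against 6.99, 8.19 and 8.72 (KO), a log2 change of -0.25 (SE 0.074, adjusted p = 0.0771 with the block).

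Per1 (chromosome 11, 69095217 to 69109960, plus strand) went against the other Per genes in couple 1. This gene, which responds within a short time to glucocorticoids and other signals, gave 6.56, 8.90 and 5.26 (WT) against 8.19, 5.82 and 3.96 (KO). The KO mouse was higher in couple 1 and lower in couples 2 and 3 (log2 change -0.20, SE 0.18 with the block, limma adjusted p = 0.446). Lists of fast-responding genes are given for comparison. The 9 tested immediate early genes had median differences of 1.13, -0.18 and 0.04 in couples 1, 2 and 3, with 0 of 9 called with or without the block. Over all tested genes, 1.01% were called lower and 1.15% higher without the block, and 9.91% and 8.4% with it. The 7 tested steroid-responsive genes had medians of -0.22, -0.45 and -0.37 in couples 1, 2 and 3, with 1 lower and 0 higher without the block and 3 lower and 0 higher with it. The part of these signals in the Per1 difference was not tested.

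The REV-ERB genes spread widely between couples, and neither passed the test between genotypes. Nr1d1 (chromosome 11, 98767932 to 98775333, minus strand) gave 15.2, 7.03 and 2.73 (WT) against 7.73, 7.67 and 4.93 (KO) in couples 1, 2 and 3. The KO mouse had a lower level than its littermate in couple 1, about the same in couple 2 and more in couple 3. The differences were -0.89, 0.11 and 0.67 on the log2 scale, with a fitted change of -0.04 (SE 0.30 with the block, limma adjusted p = 0.937). Nr1d2 (chromosome 14, 18204054 to 18239127, minus strand) followed the same order with a smaller span. It gave 22.4, 10.8 and 7.99 (WT) against 18.5, 10.7 and 9.67 (KO; log2 change -0.01, SE 0.12, adjusted p = 0.963). A p this high does not show that the genotypes had equal levels. Exons of Nr1d1 overlap those of Thra on the opposite strand over 263 bp, 8.55% of the exon length of Nr1d1. Whether reads were counted by strand is not given in the sources used here, so reads in that stretch may come from either gene. Thra, a thyroid hormone receptor, was itself lower in KO with the block (log2 change -0.81, SE 0.11, limma adjusted p = 0.0213). It missed the threshold without the block (SE 0.17, adjusted p = 0.0624).

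The output factors Dbp and Tef parted in the same way, with Tef steady across couples and Dbp not. Tef (chromosome 15, 81802421 to 81826863, plus strand) gave 15.0, 13.3 and 9.04 (WT) against 11.0, 9.27 and 7.03 (KO) in couples 1, 2 and 3. The KO mouse was lower in each couple by a similar amount (-0.41, -0.48 and -0.32), although the groups overlapped. The overlap came from the WT mouse of couple 3, which is in another normalization set. Within couples 1 and 2 the groups did not overlap. The means were 12.4 ± 3.05 and 9.11 ± 2.00 (SD, n = 3 each), a log2 change of -0.40 with an SE of 0.076 and a limma adjusted p of 0.0339 with the block (SE 0.23, adjusted p = 0.454 without). Dbp (chromosome 7, 45705088 to 45710203, plus strand), a clock transcript with a wide daily swing in many tissues, gave 15.4, 7.34 and 2.40 (WT) against 9.15, 5.05 and 3.00 (KO). The KO mouse was lower in couples 1 and 2 and slightly higher in couple 3 (log2 change -0.31, SE 0.19 with the block, adjusted p = 0.301). Dbp shares 539 bp of exon, 18.0% of its exon length, with Sphk2 on the opposite strand. Sphk2 had a log2 change of -0.36 (SE 0.078 and limma adjusted p = 0.0430 with the block, SE 0.19 and adjusted p = 0.402 without it).

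**Figure D2:**
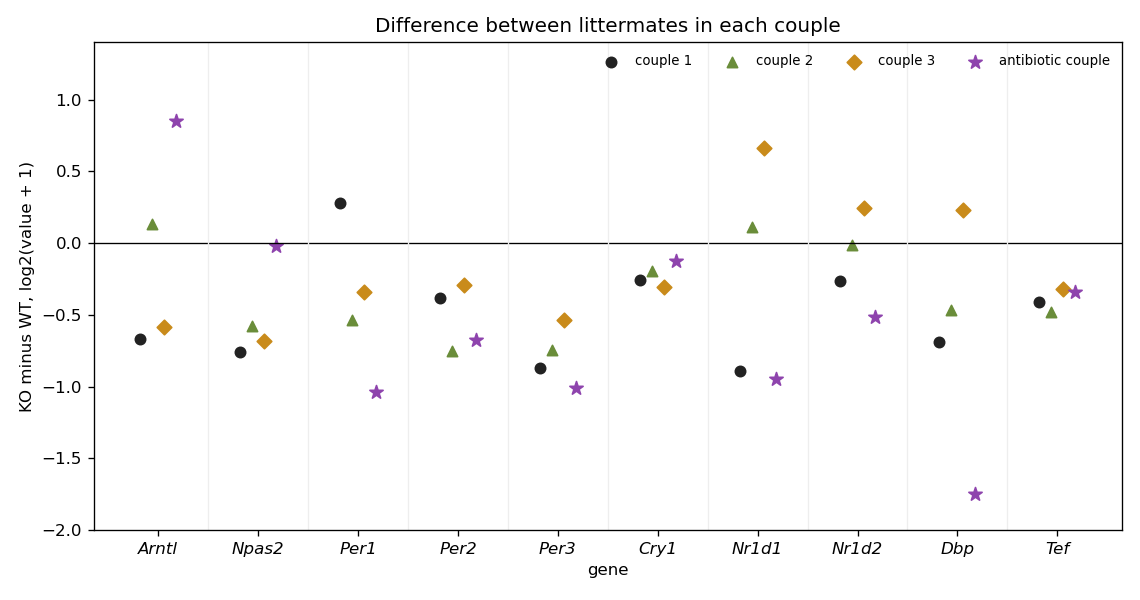
Difference between KO and WT littermates in log2(value + 1) for each clock gene (x axis), with 1 point per couple: black circle couple 1, green triangle couple 2, orange diamond couple 3, purple star the antibiotic couple; the line marks 0. The points of Npas2, Per2, Per3, Cry1 and Tef all lie below 0, while those of Nr1d1 run from -0.95 with antibiotics to 0.67 in couple 3.

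Leaving out couples touched the 3 blocked calls. With the block and 1 couple left out, Per3 was called without couple 3 (adjusted p = 0.0435) and missed the threshold without couple 1 (0.0699) and without couple 2 (0.0835). Npas2 (adjusted p of 0.0569, 0.0552 and 0.0620 without couples 1, 2 and 3) and Tef (0.0891, 0.128 and 0.106) missed it each time, with log2 changes from -0.72 to -0.63 for Npas2 and from -0.44 to -0.36 for Tef. The direction in these 3 genes held in each of these fits.

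Dbp, Nr1d1 and Nr1d2 stood in the same order of couples, with couple 1 highest and couple 3 lowest, in both genotypes. In WT mice Dbp was 2.09 times, Nr1d1 2.16 times and Nr1d2 2.08 times higher in couple 1 than in couple 2, whose libraries belong to 1 normalization set. Of all tested genes, 6.06%, 5.45% and 5.64% were as far apart on the log2 scale between these 2 WT libraries. Between the 2 KO libraries the difference was 0.75 log2 units for Dbp, 0.74 for Nr1d2 and 0.01 for Nr1d1, higher in couple 1. Across all 3 WT mice, Dbp spanned 6.39-fold, Nr1d1 5.54-fold, Per3 4.21-fold and Nr1d2 2.80-fold from lowest to highest, whereas Cry1 spanned 1.29-fold and Npas2 1.56-fold. These spans include the change of normalization set at couple 3. Sampling hour, sex and litter of each couple cannot be told apart with 1 mouse per genotype and couple.

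A ratio of 2 genes within a library does not depend on the library's overall scale, but it can depend on how its set was normalized. The sorted values of couples 1 and 2 were identical, which a single factor per library would not give. Ratios in couple 3 or the antibiotic couple thus also carry the difference between sets. Dbp over Arntl, an output gene over an activator that peaks at another time of day, came to 2.73 (WT) and 2.90 (KO) for couple 1, 1.31 and 0.809 for couple 2, and 0.221 and 0.433 for couple 3. Nr1d1 over Arntl came to 2.70 and 2.45, 1.26 and 1.23, and 0.252 and 0.712 in the same order. Both ratios stood in the same order of couples, from couple 1 to couple 3, in WT and in KO mice. Per3 over Arntl was lower in the KO mouse of each couple (0.634 and 0.472, 0.940 and 0.439, 0.115 and 0.0791 in couples 1, 2 and 3). These ratios are given as description, with no test.

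**Figure D3:**
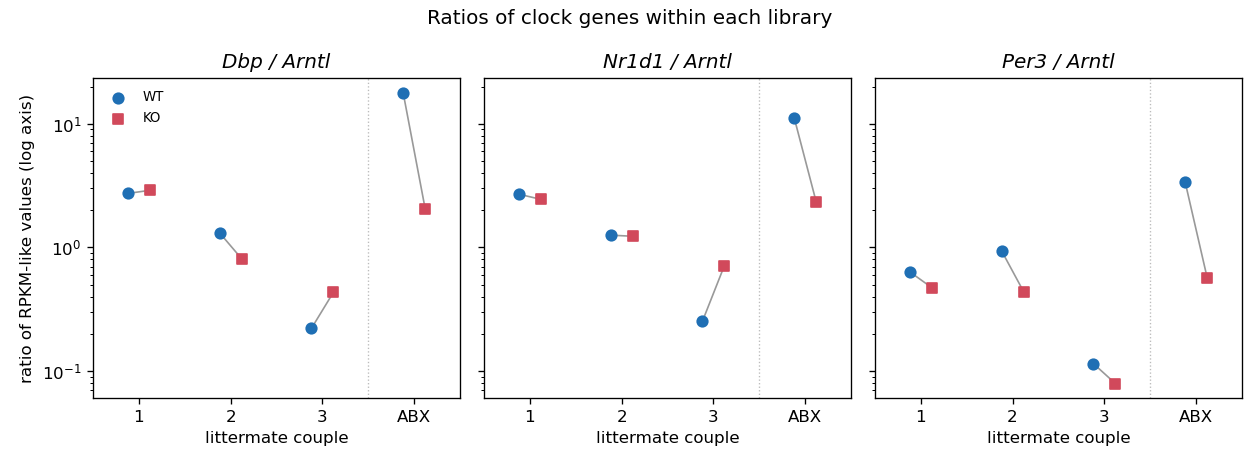
Ratio of the RPKM-like values of Dbp, Nr1d1 and Per3 to that of Arntl in each library (log axis), WT as blue circles and KO as red squares, by couple, with a line joining littermates. In couples 1 to 3 the first 2 ratios fall together in both genotypes, and the WT mouse given antibiotics stands highest, at 17.8 for Dbp over Arntl.

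Among other clock genes, those called with the block were lower in KO as well. Of 19 further clock genes considered, 13 were tested in the untreated libraries. Their median log2 change was -0.13, and 10 of the 13 had a fitted change below 0, as did all 10 genes above (median -0.34). Over all tested genes the median was -0.01, and 6052 of 11717 had a fitted change below 0. Without the block limma called 0 of the 13 (1.01% of all tested genes were lower and 1.15% higher), and with it 3 were lower and 0 higher (9.91% and 8.4% of all tested genes). Hlf, the third PAR bZIP factor, gave 2.64, 2.75 and 1.79 (WT) against 1.03, 0.711 and 0.595 (KO) in couples 1, 2 and 3 (log2 change -0.93, SE 0.11, adjusted p = 0.0171 with the block). Cry2, the second cryptochrome, gave 4.75, 8.43 and 6.16 (WT) against 3.09, 3.95 and 3.02 (KO; -0.75, SE 0.11, adjusted p = 0.0240). For Hlf and Cry2, as for Npas2, every KO value lay below every WT value, as for 12.1% of all tested genes. The third was the cell-cycle kinase gene Wee1, an output of the clock (-0.55, adjusted p = 0.0299 with the block). Nfil3, the repressor at D-boxes, stood in the opposite direction in each couple, with 3.06, 4.07 and 14.0 (WT) against 5.14, 7.76 and 15.0 (KO; 0.49, SE 0.15, adjusted p = 0.0858 with the block). Ciart, a further repressor, was under 1 in every library and was not tested.

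**Figure D4:**
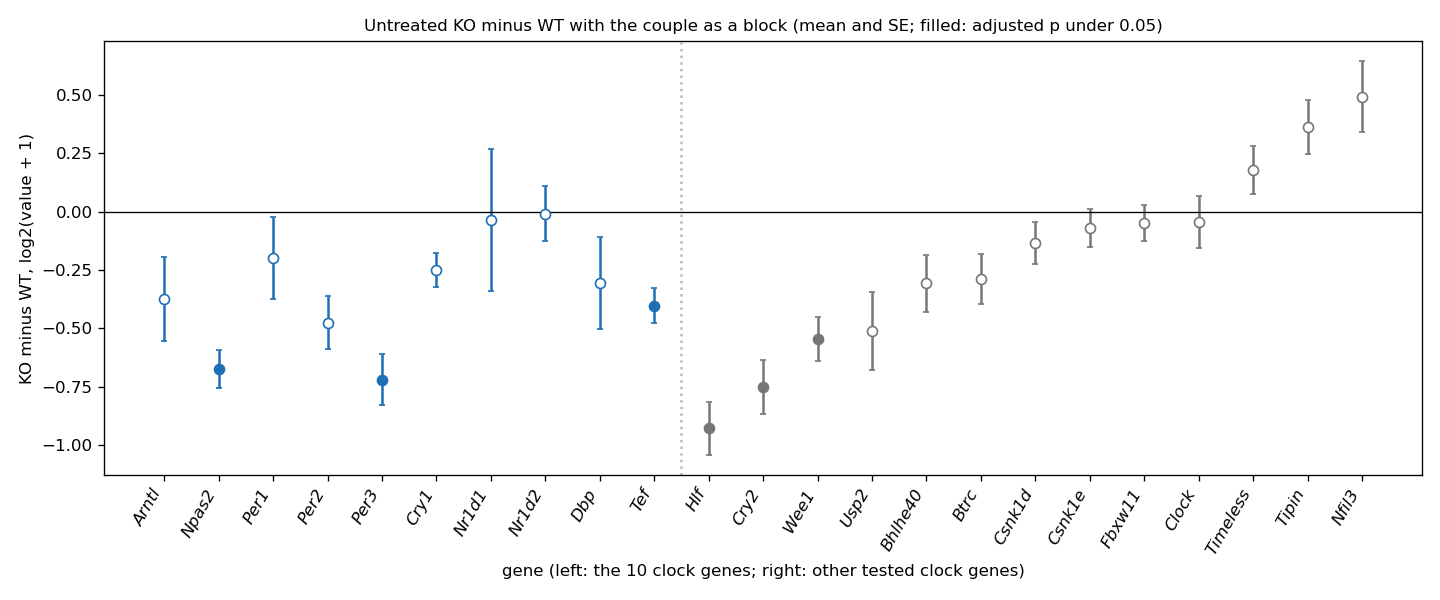
Mean difference between untreated KO and WT littermates in log2(value + 1) with the couple as a block, and its standard error, for the 10 clock genes (blue) and the 13 other tested clock genes (grey, ordered by change); filled circles had an adjusted p under 0.05 and n is 3 couples. The filled points (Npas2, Per3, Tef, Hlf, Cry2 and Wee1) all lie below 0, and Nfil3 lies highest at 0.49.

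In the couple given antibiotics the WT mouse had higher levels of Dbp, the REV-ERB genes and the Per genes than its KO littermate, and a lower level of Arntl. Dbp was at 25.9 in the WT and 7.01 in the KO mouse, Nr1d1 at 16.4 and 8.02, and Nr1d2 at 28.1 and 19.4. Per1 was at 13.0 and 5.83, Per2 at 17.4 and 10.6, and Per3 at 4.94 and 1.95. Arntl was at 1.46 in the WT mouse, the lowest of all 8 libraries, and at 3.43 in the KO mouse. So 9 of the 10 genes were lower in KO in this couple and Arntl was higher. The share of all tested genes lower in KO in this couple was not computed. The median log2 difference in this couple was -0.59 over the 10 genes and -0.04 over 11341 tested genes. Per1, Per3 and Dbp were at least 2-fold lower in KO on the log2(value + 1) scale (-1.04, -1.01 and -1.75), a difference reached by 0.964% of 11520 genes. With 1 library per genotype this difference has no replicate check and no test. The smallest differences were those of Npas2 (5.34 and 5.25), Cry1 (8.50 and 7.74) and Tef (22.0 and 17.2). Dbp over Arntl was 17.8 in the WT mouse, above the 0.221 to 2.90 of the other 7 libraries, and 2.05 in the KO mouse. The WT column of this couple holds 423 genes with tied, missing or displaced values, and none of the 10 genes is among them. Nfil3 and Usp2 are, and they were left out of fits with this couple.

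Whether the genotype difference depended on antibiotics was tested as the difference between the antibiotic couple and the untreated couples. Of the 10 genes, 0 passed with limma, without the block or with it, and limma called 0 of the 11520 tested genes (0.0%) in either fit. At an unadjusted p under 0.05 without the block, 0 of the 10 stood out, beside 4.19% of tested genes (2.04% higher and 2.15% lower). With the block 3 did, beside 16.1% of tested genes (7.34% higher and 8.72% lower). The 3 were Dbp (-1.44, SE 0.39, adjusted p = 0.225), Arntl (1.22, SE 0.36, adjusted p = 0.244) and Npas2 (0.65, SE 0.16, adjusted p = 0.203), each with the block. The 5 genes that were lower in KO in all untreated couples were lower in this couple too. In all, 21.1% of tested genes were lower in KO in all 4 couples.

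Levels with antibiotics were compared with those without over all 8 libraries, with genotype as a term. The fit takes the treated littermates as independent, so its p-values leave out what a couple shares. None of the 10 genes passed with limma, and 0.13% of tested genes were called higher and 0.026% lower (0.156% in either direction). At an unadjusted p under 0.05, 2 were higher and 1 was lower, beside 4.45% and 15.0% of tested genes (19.4% in either direction). Tef was at 22.0 and 17.2 with antibiotics and at 7.03 to 15.0 without, so both treated libraries lay above all 6 untreated ones, as for 3.86% of tested genes (log2 change 0.84, SE 0.22, adjusted p = 0.129). Nr1d2 (0.85, SE 0.37, adjusted p = 0.252) was the other higher gene, and Arntl the lower one (-1.10, SE 0.37, adjusted p = 0.175). The sizes for Arntl, Dbp, Nr1d1 and Per1 rested on the WT library given antibiotics. Without it the changes were -0.49 for Arntl, 0.36 for Dbp (1.08 with it), 0.24 for Nr1d1 (0.69 with it) and 0.012 for Per1 (0.43 with it). Without the KO library given antibiotics they were -1.71, 1.80, 1.14 and 0.85. Tef moved little, to 0.87 without the WT library and 0.80 without the KO library, and Nr1d2 was at 0.60 and 1.11. In 5 genes (Per1, Dbp, Tef, Nr1d1 and Nr1d2) the WT mouse given antibiotics had the highest level of all 8 libraries, which held for 6.28% of tested genes. The median change of all tested genes was -0.14 as deposited and 0.00 after the libraries were quantile normalized together. Relative to these medians, the changes as deposited and after joint normalization were 1.22 and 1.18 for Dbp, 0.98 and 0.90 for Tef, 1.00 and 0.90 for Nr1d2, and -0.96 and -0.89 for Arntl. Treatment coincides with 1 couple, its litter and its normalization set, and these cannot be told apart.

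Genes with a profile like that of Dbp were ranked over the 8 libraries by Pearson correlation of log2 values after the mean of each normalization set was subtracted. Among the other 9 clock genes, Nr1d1 (r = 0.87), Nr1d2 (0.83), Tef (0.71) and Per1 (0.64) were most like Dbp and Arntl least (-0.61). Of 11510 genes outside the set, 0.895% had an r at least as high as that of Nr1d1. The 5 highest outside the set were 1700025G04Rik (0.99), Manba (0.98), Vopp1 (0.98), A530020G20Rik (0.97) and Pcsk1 (0.96). A530020G20Rik was at 0 in both libraries of couple 3 and at most 1.30 in the others. The ranking is a description, over libraries that share couples.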

How the data were processed

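Polyadenylated RNA of whole ileum sections was sequenced in 8 mice on an Illumina HiSeq 2000 or an Ion Proton. Per the series' design text, the authors mapped reads to GRCm38 (release 76) in CLC Genomics Workbench 7.5 with its defaults. How reads were counted and normalized, and on which instrument each library ran, is not given in the sources used here. No source names the unit of the values the authors deposited. These deposited values were taken to be RPKM because they are not whole numbers, the library sums (346794 to 397082, with 351707 for each of the 4 libraries of couples 1 and 2) are not those of CPM or TPM, and values fell with exon length in each library (slopes of log2 value on log2 length from -0.54 to -0.36). The sorted values of couples 1 and 2 were identical, and couple 3 and the antibiotic couple shared no values above 0 with other couples, so the deposited values were treated as 3 separately normalized sets. In the WT antibiotic column 376 genes shared a tied value, 45 were at 0 with at least 1 in the littermate and 2 were displaced by over 3 log2 units, and these 423 genes were left out of fits with that couple. That rule was set with the values known.

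Values were analysed as log2(value + 1), for genes with at least 1 in at least 3 libraries, with limma 3.58.1 (trended prior variance) in R 4.3.3 and Benjamini-Hochberg adjustment over all tested genes (threshold 0.05). The fit without the couple was the primary one. The labels give couples as littermates, and the deviations of the 2 mice of a couple from their group means correlated (0.62, 0.64 and 0.51 across 11717 genes), so the blocked value is given beside results it changes. The scripts were tested on simulated data. Coordinates and exon overlaps are from GENCODE M21 (GRCm38). The genes and lists were chosen with earlier results of these data known. All 10 genes are named, with Clock, Cry2, Nfil3, Hlf and Ciart as partners and other clock genes passing either untreated fit. From the list of other clock genes 2 are not reported here and were left out of its counts. The p-values of the untreated fit without the block measure the spread between 3 mice per group. That spread also holds what littermates share and the difference between normalization sets. With the block the p-values measure the spread of littermate differences over 3 couples. In the fits with antibiotics, with 1 treated mouse per genotype, they rest mainly on the spread between untreated mice. Alternatives were the block, pseudocounts of 0.1 and 0.5, other filters, no variance trend, joint quantile normalization, and leaving out libraries or couples.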

Additional observations from a re-analysis of the deposited data

How the results depend on the processing

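Over the untreated comparison, 0 of the 10 clock genes were called under every alternative without the block, and none changed to a call in the opposite direction. With the couple as a replicate block 3 were called lower (1 with the block and without couple 3), and the block changed no other call of these 10 genes. Per3 was not tested where a value of 1 was required in every library. Counts over all genes moved more: with the replicate block 984 were higher and 1161 lower. With no filter on low values they were 7 and 4. With the block, leaving out couple 1, 2 or 3 gave 201, 200 and 248 higher and 263, 221 and 275 lower, and without the block each gave 0 and 0. Leaving out single libraries gave 41 to 74 higher and 21 to 69 lower. The cause was not tested.

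Npas2, Per2, Per3, Cry1, Tef and Arntl kept a change below 0 in every untreated fit. Without single libraries their ranges were -0.83 to -0.48, -0.65 to -0.26, -1.13 to -0.39, -0.33 to -0.16, -0.60 to -0.25 and -0.55 to -0.085. The sign of Nr1d1, Nr1d2, Dbp and Per1 turned when single libraries were left out: without single libraries Nr1d1 ran from -0.57 to 0.48, Nr1d2 from -0.30 to 0.39, Dbp from -0.90 to 0.23 and Per1 from -0.42 to 0.027. Without couple 1, Nr1d1 was at 0.39 and Nr1d2 at 0.12, with or without the block.

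For antibiotics against none, no clock gene was called in any fit. Genes called higher and lower were 15 and 3, with 8 lower at a pseudocount of 0.1, 0 and 0 with no filter, 16 and 1 after joint quantile normalization, 5 lower with the faulty rows kept (an alternative chosen after seeing the data), and 1 to 76 higher and 0 to 84 lower without single libraries, both highest without the WT antibiotic library. Joint normalization turned Npas2 to 0.18 and Cry1 to 0.069, and Npas2 ran from -0.34 to 0.31 without single libraries. For the difference of genotype effects no clock gene was called, and keeping the faulty rows gave 44 genes higher and 30 lower in place of 0 and 0. Tef ran from -0.092 to 0.26 and Per3 from -0.62 to 0.13 without single libraries. This difference could not be fitted without either antibiotic library. Read depth is unknown, so no counting error could be given.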
